A study of Mus musculus with 2 samples.

Results

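This account covers 7 mature mouse miRNAs of noncanonical biogenesis, that is, miRNAs made without Drosha or Dicer or entries that may derive from other RNAs: mmu-miR-320-3p, mmu-miR-484, mmu-miR-451a, mmu-miR-877-5p, mmu-miR-1839-5p, mmu-miR-1839-3p and mmu-miR-5106 (named without the species prefix from here on). They were picked by name from the 1915 distinct mature miRNAs listed for both libraries. Their reads in these libraries were already known when they were picked, so the reads are described and not tested. Exosomes released by parental CT26 cells and by sphere-derived cancer stem cells of CT26 (SDCSCs) gave 1 small RNA library each. CT26 is an established colon carcinoma line of the Balb/C mouse. The SDCSCs are the spheres that grew from it over 2 weeks in serum-free DMEM/F12 with 10 ng/ml bFGF, 10 ng/ml EGF and N2 supplement. Parental exosomes came from cells in complete DMEM with exosome-depleted serum, so medium and cell state differed together and cannot be told apart. Insert sizes from 18 to 40 nucleotides were selected for both libraries. No replicate was sequenced, and every value below describes a single library.

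Most miRNAs are cut on their way to maturity by Drosha in the nucleus and by Dicer in the cytoplasm, before an Argonaute protein takes up 1 strand. Other routes skip a step. Some short hairpins are transcribed directly and carry a 5′ cap, so Drosha is not needed, as known for miR-320 and miR-484. A mirtron is a short intron that folds into a hairpin once spliced, as known for miR-877. The hairpin of miR-451a is too short for Dicer and is cut by Argonaute 2 instead. Fragments of small nucleolar RNAs (snoRNAs) and transfer RNAs can also be listed as miRNAs.

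RefSeq held a mature sequence for 5 of the 7 miRNAs. They are shown because the seed decides which targets a miRNA can pair with, and the seed, bases 2 to 8, is in capitals.
miR-484: uCAGGCUCaguccccucccgau
miR-451a: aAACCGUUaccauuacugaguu
miR-877-5p: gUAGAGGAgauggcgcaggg
miR-1839-5p: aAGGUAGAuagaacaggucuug
miR-5106: aGGUCUGUagcucaguuggcaga
No seed was shared between these 5 miRNAs. Among the 1679 mature miRNAs of RefSeq, only miR-6897-3p shared one, that of miR-5106, and it had 0 reads in both libraries. A RefSeq mature sequence was found for 1623 of the 1915 names in the files, and seeds of the other names were not compared. The mature lengths were between 20 and 23 bases, beside a median of 22 over the 1581 mature miRNAs that could be placed in a hairpin.

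The hairpins show how these miRNAs differ in origin, and the mature part is in capitals. All coordinates are those of GRCm38, the assembly also called mm10.
Mir451a, chr11:78073170-78073241, plus strand: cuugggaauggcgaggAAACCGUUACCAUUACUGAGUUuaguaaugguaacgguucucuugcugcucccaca
Mir877, chr17:35960730-35960814, minus strand: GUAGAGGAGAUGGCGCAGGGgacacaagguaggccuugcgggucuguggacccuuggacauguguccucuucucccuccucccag
Mir1839, chr7:81529916-81529988, plus strand: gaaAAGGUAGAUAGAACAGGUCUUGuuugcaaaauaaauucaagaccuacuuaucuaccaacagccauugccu
Mir5106, chr4:44221195-44221267, minus strand: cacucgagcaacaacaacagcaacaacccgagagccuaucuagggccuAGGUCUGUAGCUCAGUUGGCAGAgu
In the fold computed by RNAfold, the mature miR-451a ran through the stem into the terminal loop, with 17 paired bases and 4 bases of the loop. Only 1.33% of mature miRNAs had as many bases in a loop. Its minimum free energy of -43.3 kcal/mol was lower than the median of -32.0 over 1005 hairpins, whereas those of Mir1839 (-22.0), Mir5106 (-22.4) and Mir484 (-24.6) were higher. The hairpin of Mir877 was exactly an intron of Abcf1, a gene of the ABC family that works in translation. Such a match held for 22 of 2202 miRNA genes of the GENCODE annotation (0.999%). The hairpins of the mirtrons Mir1224, Mir1981, Mir1982 and Mir3102 were among them, but that of Mir702, also listed as a mirtron, was not. Mir1839 overlapped a scaRNA of GENCODE, a small RNA of the Cajal body, by 66 bp, and its last 7 bases ran past the end of that RNA. In GENCODE, 24 of 2202 miRNA genes (1.09%) overlapped a snoRNA or scaRNA on the same strand. No snoRNA gene of RefSeq overlapped the hairpin of Mir1839. The scaRNA, 127 bases long, had the letters ACA 3 bases before its 3′ end, as did 49.0% of 51 scaRNAs, 18.3% of 1507 snoRNAs and 3.27% of 2202 miRNA transcripts. The H box letters ANANNA, with N for any base, were found at 8 places in it. Their matches in other RNAs were not counted, so this number has no comparison. The mature miR-1839-5p also lay whole in a transcript of the noncoding gene 2900076A07Rik.

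The remaining hairpins were placed by their neighbours. Mir320 lay on chromosome 14 from 70443510 to 70443591 on the plus strand, 62 bp away from Polr3d, which is read the other way and encodes a subunit of RNA polymerase III. Mir484 lay on chromosome 16 from 14159626 to 14159692 on the plus strand. It began 359 bp from a start of Marf1, a gene on the other strand, and 19 of its bases overlapped an exon of that gene. A start of a coding transcript within 200 bp of the hairpin, as for Mir320, was found for 7.18% of miRNA genes. Mir451a lay outside introns and exons, with Mir144 on the same strand 99 bp before it and Mir451b on the opposite strand of the same stretch. At Mir5106, no snoRNA, scaRNA or tRNA gene was annotated.

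**Figure D1:**
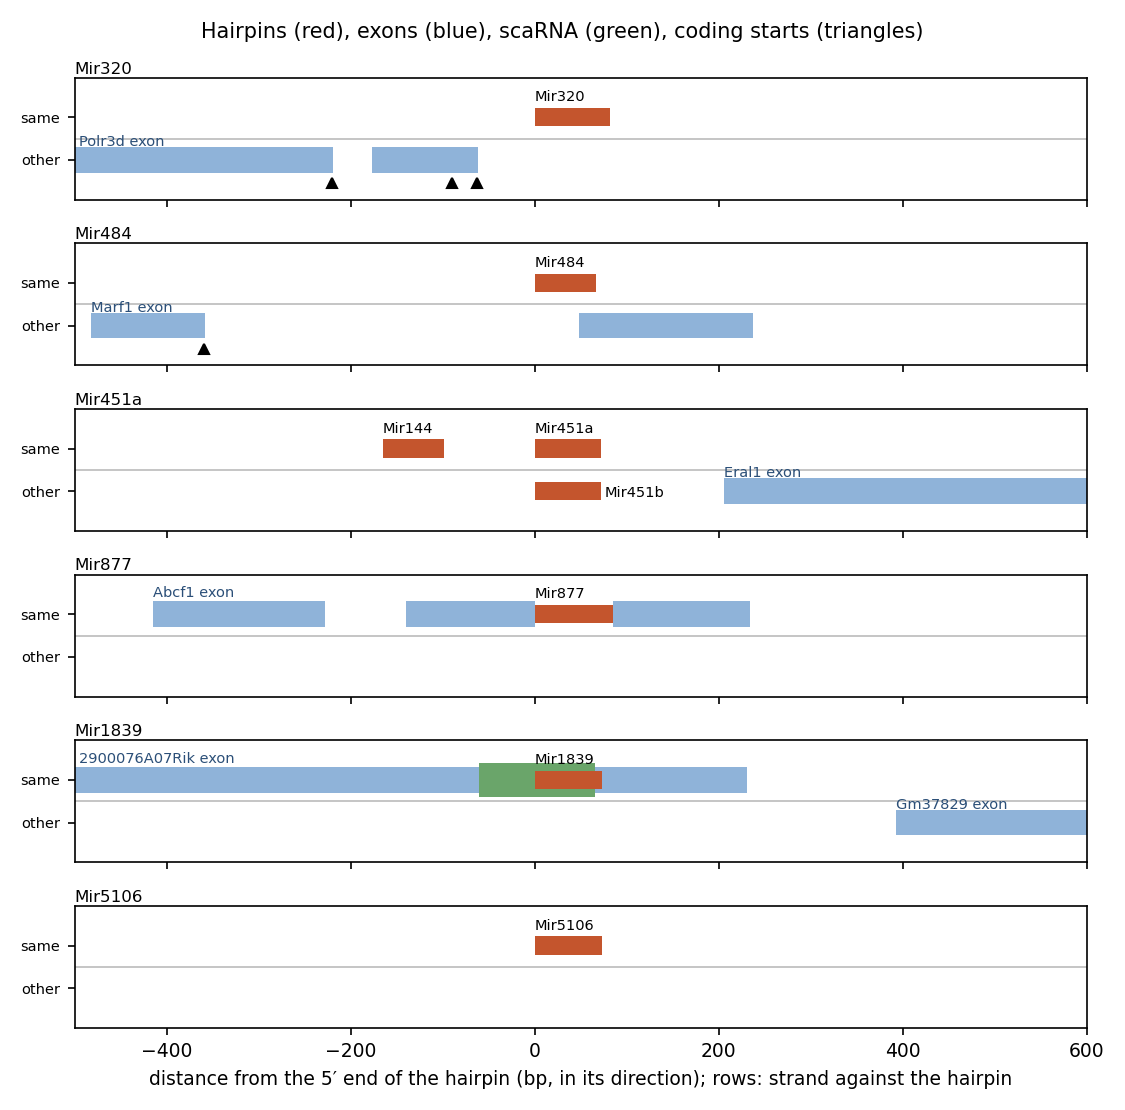
Map of the 6 hairpins (red) with exons (blue), the scaRNA (green) and starts of coding transcripts (triangles). The horizontal axis is the distance in bp from the 5′ end of each hairpin in its own direction, and each panel has a row for the strand of the hairpin and a row for the other strand. Mir877 fills the gap between exons of Abcf1, Mir1839 overlaps the scaRNA, and Polr3d starts close to Mir320 on the other strand.

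The depth decides what can be seen of these miRNAs. The deposited values gave back 32162 reads in parental and 3964 reads in SDCSC exosomes, when the highest entry of each miRNA was taken. Each of the 7 had a single entry. Over all 1915 miRNAs, 328 had a read in parental and 124 in SDCSC exosomes. The counts of miRNAs with a read in the lists below stand beside this difference. A count of 0 reads allows for up to 3, which is 0.00933% of miRNA reads in parental and 0.0757% in SDCSC exosomes. PCR copies of a molecule are counted as separate reads, so intervals and this limit reflect counting error alone. Of 8 markers of colon epithelium (miR-200a-3p, miR-200b-3p, miR-200c-3p, miR-141-3p, miR-429-3p, miR-192-5p, miR-194-5p and miR-215-5p), 3 had a read in parental and 2 in SDCSC exosomes. In sum they had 55 and 2 reads. Most of these were from miR-192-5p, with 48 parental reads and 0 in SDCSC exosomes, whereas miR-200a-3p, miR-200c-3p and miR-141-3p had 0 reads in both. The SDCSC reads came from other markers, miR-200b-3p and miR-429-3p, with 0 parental reads and 1 SDCSC read each.

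As a group, the 7 miRNAs took 447 reads in parental exosomes, 1.39% of the total (95% Wilson interval 1.27 to 1.52%). In SDCSC exosomes they took 14 reads, or 0.353% (0.211 to 0.592%). At the parental share, 55.1 reads would have been counted. The difference was uneven: miR-5106 and miR-451a together made up most of the parental reads and none of the SDCSC reads. Without this pair, 151 reads (0.469%, interval 0.400 to 0.550%) stood against 14 (0.353%), with a log2 ratio of SDCSC to parental shares of -0.41 (exact 95% interval -1.32 to 0.38). The summed shares of the other 5 miRNAs could thus not be separated by these reads. Within the group, miR-5106 led in parental exosomes with 46.5% of the reads, and miR-320-3p led in SDCSC exosomes with 64.3%.

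**Figure D2:**
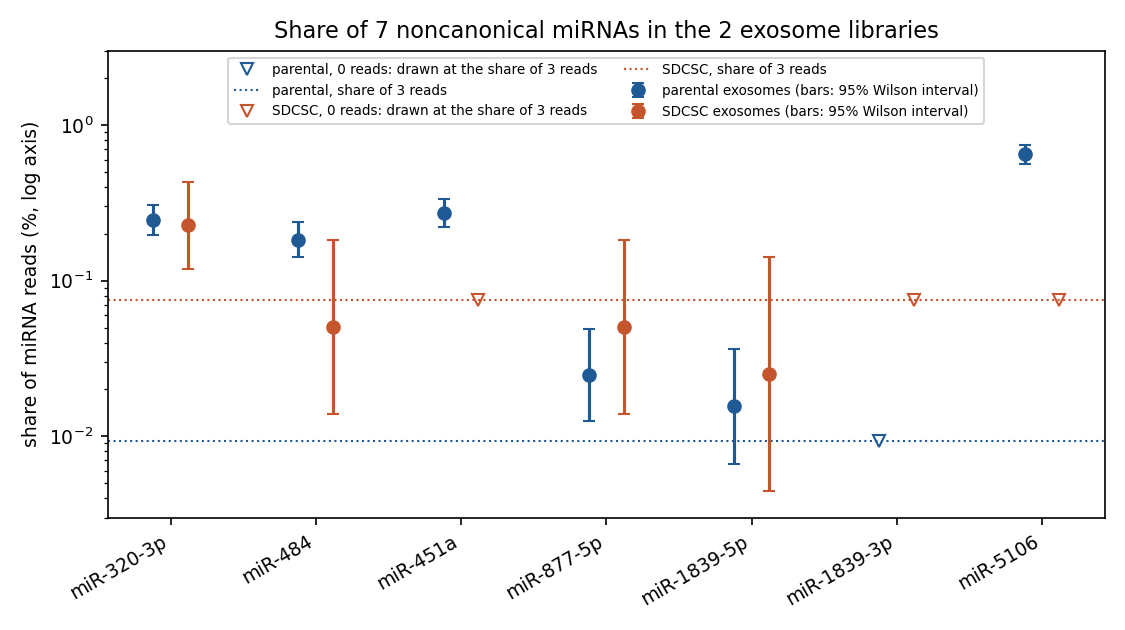
Share of miRNA reads in percent (log axis) of each of the 7 miRNAs in parental (blue) and SDCSC (orange) exosomes, 1 library each, with 95% Wilson intervals as bars. Open triangles mark 0 reads and sit at the share of 3 reads (dotted lines). The points of miR-320-3p lie at nearly the same height, while miR-451a and miR-5106 have triangles in SDCSC exosomes below their parental points.

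Of the 7, 6 had a read in either library and 5 had at least 10 over both. Of these 5, 3 were at least 1.5-fold lower by share in SDCSC exosomes (miR-5106, miR-451a and miR-484), 1 was at least 1.5-fold higher (miR-877-5p) and 1 was neither (miR-320-3p). For comparison, 32.4% of the 136 miRNAs with at least 10 reads were lower by this rule and 18.4% were higher. A library with fewer than 3 reads was set to 3 wherever this made the fold smaller. The median log2 ratio was -1.85 over the 5 and -0.17 over the 136, with miRNAs at 0 placed at their limit. In SDCSC exosomes this limit is 0.0757%. A miRNA at 0 there with a smaller parental share, such as let-7j (13 parental reads, 0.0404%), enters with a ratio above 1. This can raise the median over the 136, whereas both miRNAs at 0 among the 5 had larger parental shares. The medians are therefore not directly comparable. Counts this small show nothing particular to the group.

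Both capped hairpins were read in each library. For miR-320-3p, 79 reads were counted in parental and 9 in SDCSC exosomes, which is 0.246% (95% Wilson interval 0.197 to 0.306%) and 0.227% (0.119 to 0.431%) of miRNA reads. Its log2 ratio was -0.11, with an exact 95% interval from -1.29 to 0.88. The shares lay close together, although the interval leaves room for a change of more than 1.5-fold either way. By reads it ranked 54 in the parental library and 40 in the other, and it was the only one of the 7 with at least 3 reads in the SDCSC library. The other arm of its hairpin, miR-320-5p, had 0 reads in both.

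For miR-484, the other capped hairpin, 59 reads were counted in parental and 2 in SDCSC exosomes, or 0.183% (0.142 to 0.237%) and 0.0505% (0.0138 to 0.184%). The SDCSC count is under the limit of 3 reads. Its log2 ratio was -1.86 (exact 95% interval -4.94 to 0.0545), and 7.27 reads would have been counted at the parental share. The point was lower, but the interval still held an equal share. Summed, miR-320-3p and miR-484 had 138 and 11 reads, with a log2 ratio of -0.63 (-1.66 to 0.26). Whether the capped pair moved together could not be read from these counts.

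The reads of miR-451a, which is best known from red blood cells, were 88 in parental and 0 in SDCSC exosomes. Its parental share was 0.274% (95% Wilson interval 0.222 to 0.337%), rank 50. At this share 10.8 reads would have been counted in the SDCSC library. Set against 3 reads, the share was at least 3.62-fold lower in SDCSC exosomes, and the exact 95% interval of the log2 ratio reached up to -1.53, a smaller difference. Its neighbour on the same strand, Mir144, gave far fewer reads, with 3 for miR-144-3p and 3 for miR-144-5p in parental exosomes and 0 for both in SDCSC exosomes. The opposite-strand miR-451b had 0 reads in both.

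A list of miRNAs known from blood cells is given beside miR-451a. It held miR-451a, both arms of miR-144, miR-223, miR-142a, miR-486a and miR-486b, with miR-150-5p and miR-126a-3p. Of its 13 miRNAs, 10 had a read in parental exosomes and 1, miR-142a-5p, in SDCSC exosomes. Over all 1915 miRNAs, 328 had a read in parental and 124 in SDCSC exosomes. By the 1.5-fold rule 5 of the 6 in the list with at least 10 reads were lower, miR-451a included. The other, miR-223-3p with 12 and 0 reads, was neither. Beside this, 32.4% of the 136 miRNAs with as many reads were lower. Of the 66 miRNAs with at least 50 parental reads, a filter on the parental library alone, 56.1% were lower. The reads of single miRNAs ranged from 0 to 856 in parental and from 0 to 1 in SDCSC exosomes. Summed, they were 2079 reads, or 6.46%, against 1 read, or 0.0252%. Most came from miR-486a-5p (856 reads) and miR-486b-5p (853 reads), which are near-identical and may be the same reads counted at both. With miR-486b-5p left out, 1226 reads stood against 1, and 4 of 5 were lower. The defining erythroid miRNAs, miR-451a, miR-144-3p, miR-144-5p, miR-486a-5p and miR-486b-5p, were at 0 in SDCSC exosomes. For the arms of miR-144 a count of 0 shows no difference, since 0.37 SDCSC reads each would have been counted at the parental share. What part blood-cell or serum RNA had in the reads of miR-451a was not tested.

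The mirtron product miR-877-5p was counted with 8 parental and 2 SDCSC reads, or 0.0249% (95% Wilson interval 0.0126 to 0.0491%) and 0.0505% (0.0138 to 0.184%). Its log2 ratio was 1.02, but the exact 95% interval ran from -2.25 to 3.35, and the SDCSC count was under the limit of 3 reads. At the parental share 0.986 reads would have been counted, so its place among the higher miRNAs rests on about 1 read. The other arm, miR-877-3p, had a single read, in parental exosomes. Of 14 products of known mirtrons, miR-877 included, 7 had a read in parental exosomes and 1, miR-877-5p, in SDCSC exosomes. Over all 1915 miRNAs these counts were 328 and 124. The 14 products summed to 17 and 2 reads, a log2 ratio of -0.07 (-3.22 to 2.01). Besides miR-877-5p, the highest were miR-702-3p, miR-1981-3p and miR-3102-3p with 2 parental reads each.

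From the scaRNA locus, miR-1839-5p was counted with 5 parental reads and 1 SDCSC read, or 0.0155% (95% Wilson interval 0.00664 to 0.0364%) and 0.0252% (0.00445 to 0.143%). Its log2 ratio of 0.70 had an exact 95% interval from -4.87 to 3.86, which decides no direction. Its partner arm miR-1839-3p was at 0 reads in both, which allows a share of up to 0.00933% in parental and 0.0757% in SDCSC exosomes. All reads of this hairpin were therefore from the 5p arm, as far as 6 reads can show. The list of snoRNA-related miRNAs also held miR-664, of which the 5p arm had 3 and the 3p arm 6 parental reads, with 0 reads of both in SDCSC exosomes.

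The most abundant of the 7 was miR-5106, with 208 reads in parental exosomes, or 0.647% (95% Wilson interval 0.565 to 0.740%), rank 29. In SDCSC exosomes it had 0 reads, where the parental share would have given 25.6. Against 3 reads this is at least 8.55-fold lower, and the exact 95% interval of the log2 ratio reached up to -2.78, a smaller difference. Ordered by parental reads, it was number 3 of the miRNAs with 0 reads in SDCSC exosomes, after miR-486a-5p and miR-486b-5p, and miR-451a was number 5. Of 66 miRNAs with at least 50 parental reads, 12.1% had 0 SDCSC reads, and 2 of the 4 in the group (miR-5106 and miR-451a) were among them. By the 1.5-fold rule 56.1% of the 66 and 3 of the 4 were lower. This filter uses the parental library alone, which favours miRNAs that are lower in SDCSC exosomes. The group was also picked with its reads known, so these 4 miRNAs show nothing particular to it. Where both libraries together held at least 10 reads, 30.9% of 136 miRNAs had 0 SDCSC reads, beside 2 of 5 in the group.

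The sequence of miR-5106 is printed again because it holds 7 letters also known from the A box of tRNA genes, UAGCUCA, in capitals from base 8.
miR-5106: aggucugUAGCUCAguuggcaga
These letters occurred in 1 of 1679 mature miRNAs (0.0596%), namely miR-5106, and in 5 of 1005 hairpins (0.498%). Their reverse complement, UGAGCUA, occurred in 4 mature miRNAs and 6 hairpins. A match of letters is no sign of how the RNA was made. The sequence was not compared with those of tRNA genes, and the parent of these reads was not tested. The whole sequence was found in no other GENCODE transcript, and a stretch of at least 18 bases was found in Gm43627, a gene of unsettled type. RNAfold paired 73.9% of its mature bases, beside a median of 81.0% over all mature miRNAs placed in a hairpin. Of these, 25.6% were paired less, and so were miR-484 (59.1%) and miR-877-5p (65.0%) of the group. The other listed tRNA-related miRNA in the files, miR-1983, had 1 read in parental and 0 in SDCSC exosomes, and of the rRNA-related miR-712 and miR-714 a single parental read was counted. Among 38 entries with neighbouring miRBase numbers, miR-5106 included, 12 had a read in parental and 3 in SDCSC exosomes. Over all 1915 miRNAs these counts were 328 and 124. Besides miR-5106, the only one of the 38 with over 20 parental reads was miR-5099, with 217 and 9 reads. Its log2 ratio was -1.57 (exact 95% interval -2.72 to -0.62). It was thus lower in SDCSC exosomes but still read, unlike miR-5106.

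**Figure D3:**
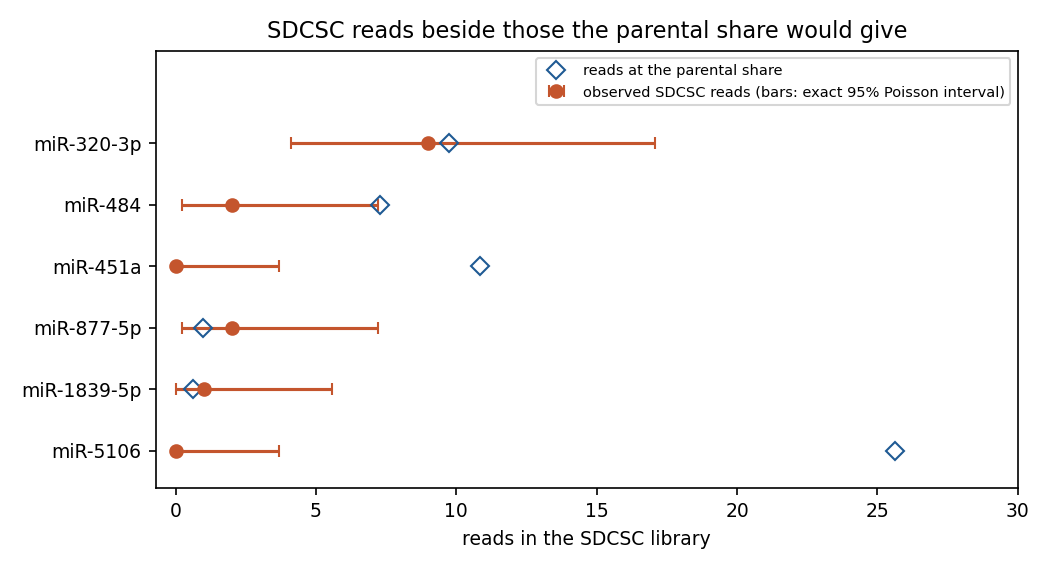
Reads of each miRNA in the SDCSC library (orange points, with exact 95% Poisson intervals as bars) beside the reads its parental share would give at the same depth (blue diamonds). The horizontal axis is in reads, and miR-1839-3p, with 0 reads in both libraries, is left out. The diamonds of miR-451a (10.8) and miR-5106 (25.6) lie beyond the bars, that of miR-484 (7.27) lies at the end of its bar (7.22), and the others lie within.

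Outside the 7, the lists of mirtrons, capped hairpins and snoRNA-, tRNA- and rRNA-related miRNAs held 20 more entries. In parental exosomes 10 of them had a read, and they summed to 20 reads. In SDCSC exosomes they summed to 0 reads, where 2.47 SDCSC reads would have been counted at the parental share. None reached 10 reads over both libraries. Of all listed noncanonical miRNAs, miR-5106, miR-451a, miR-320-3p and miR-484 were thus the only ones with more than 8 parental reads. The lists were set from general knowledge and are not complete. For example, the hairpins of Mir6970 and Mir7068 were also exactly introns but were not listed. Their products miR-6970-5p and miR-7068-3p had 1 parental read each and 0 SDCSC reads. Unlisted miRNAs of such origin are not covered here.

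**Figure D4:**
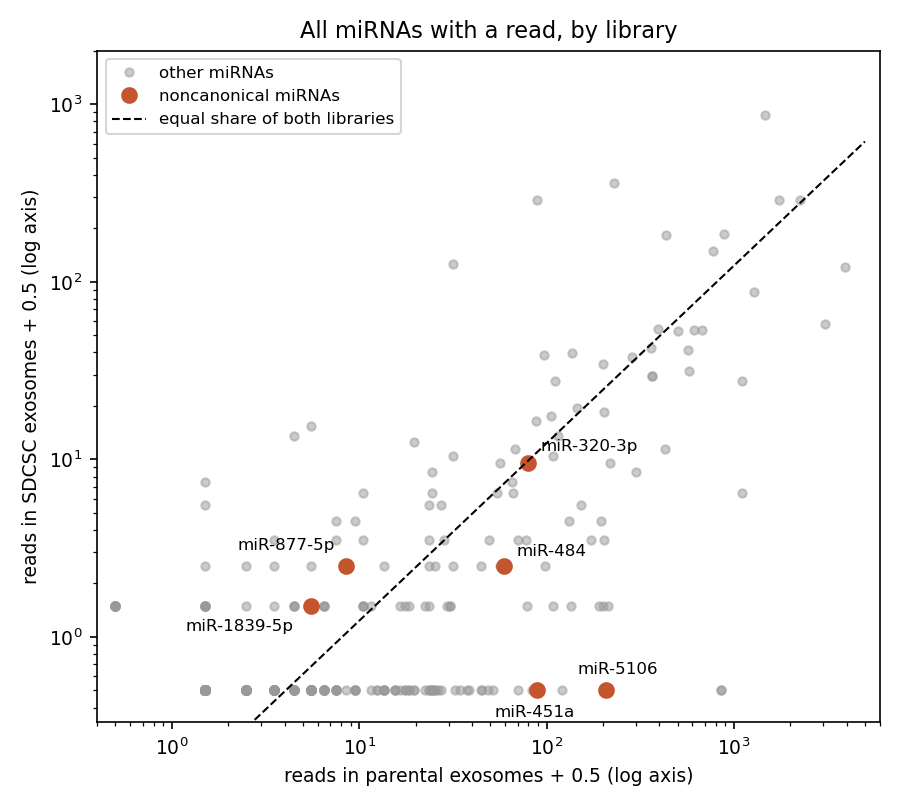
Reads of every miRNA with a read in either library, in parental (horizontal) and SDCSC exosomes (vertical), with 0.5 reads added and both axes on a log scale. The dashed line marks an equal share of both libraries. Among the noncanonical miRNAs (orange), miR-320-3p lies next to the line, miR-484 lies below it, miR-877-5p and miR-1839-5p lie just above it at few reads, and miR-451a and miR-5106 lie on the bottom row of miRNAs with 0 SDCSC reads.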

How the data were processed

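The authors clipped adapters and discarded reads shorter than 18 nucleotides with Trimmomatic, and deposited an RPM value for each mature miRNA, its reads scaled to the same total of miRNA reads in each library. The submitters' processing notes name mm10. The counter and miRBase release are not given in the sources used here. The smallest RPM above 0 (27.31 in parental, 217.77 in SDCSC exosomes) was taken as 1 read. With a tolerance of 0.05 reads, 100.0% of values above 0 came out whole. The highest entry per name was kept. Ratios are SDCSC over parental shares, with exact conditional 95% intervals.

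Members and lists were chosen with earlier results of these data known. Named were the 7 members, their partner arms, cluster and seed mates, fixed lists and the nearest miRNAs by share. The example miR-5099 was chosen after its values were seen. Fisher's exact test on the recovered reads, with Benjamini-Hochberg adjustment over 336 miRNAs, called 31 lower and 17 higher; it compares these libraries and not the conditions. Sequences are from RefSeq (GRCm38.p6), neighbours from GENCODE M21. Scripts were tested on simulated data. The listed miR-720 was not among the names. R 4.3.3 and edgeR 4.0.16 (TMM factors only), Python 3.11.15, scipy 1.17.1 and RNAfold 2.7.2 were used.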

Additional observations from a re-analysis of the deposited data

How the results depend on the processing

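No paired analysis was possible because parental and SDCSC exosomes gave 1 library each, and no replicate could be left out. Under the median of ratios, TMM, totals over all entries, sums of entries, totals that leave out the top miRNA, a fold of 2 and 0.5 added reads, 3 of the noncanonical miRNAs were lower and 1 higher, as in the values reported. The log2 ratios moved by at most 0.17 under these scalings of the libraries, which took miR-320-3p from -0.11 to 0.0538 without the most abundant miRNA. With 0.5 reads added to both libraries, miR-451a came to -4.45 in place of -1.85, miR-5106 to -5.68 in place of -3.10, miR-484 to -1.55, miR-877-5p to 1.25 and miR-1839-5p to 1.15. Leaving out library scaling, although the parental library is 8.11 times as deep, gave 5 lower and 0 higher, turned miR-877-5p to -2.0, and left 131 of all miRNAs lower and 5 higher. A fold of 4 left 1 lower (miR-5106) and 0 higher, with 20 and 9 of all miRNAs. Adding 0.5 reads without the limit of 3 called 80 of all miRNAs lower. Of all miRNAs, 52 were higher with at least 1 read and 10 with at least 50 reads. Without miR-451a and miR-5106, a choice made after seeing the data, 1 (miR-484) was lower. The depth of 3964 SDCSC reads limits every comparison given, since 6 of the 7 miRNAs had fewer than 3 reads there.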

Other observations

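For each noncanonical miRNA with at least 10 reads, the nearest other miRNAs by their shares in both libraries were found. The measure is the distance in log2 share over the 2 libraries, with 0.5 reads added. Nearest to miR-320-3p were miR-148a-3p (67 parental and 11 SDCSC reads, distance 0.36) and miR-26b-5p (65 and 7 reads, distance 0.44). Nearest to miR-484 were miR-423-3p (56 and 2 reads, distance 0.0746) and miR-146b-5p (44 and 2 reads, distance 0.42). For miR-451a they were miR-351-5p (83 and 0 reads, distance 0.0839) and let-7d-3p (70 and 0 reads, distance 0.33). For miR-877-5p they were miR-5126 (8 and 2 reads, distance 0.0) and miR-29b-3p (7 and 3 reads, distance 0.52). No miRNA lay as close to miR-5106, for which miR-133a-3p (120 and 0 reads) was at a distance of 0.79 and miR-351-5p at 1.32.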
